A study of Mus musculus with 2 samples.

Results

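The genes described here are 56 mouse genes that act in mitosis, the spindle and the kinetochore. The rule picks them by name from a list and uses no measured value, though the list was drawn up with earlier results of these data known, and the brightest probe stood for each gene. All 56 had a probe, among 31705 named genes or transcripts with a value on both arrays. Their RNA levels were compared between Lamtor1-deficient (KO) CD4+ T cells and wild-type (WT) CD4+ T cells of strain C57BL/6J. The product of Lamtor1 belongs to Ragulator, a complex that holds the kinase mTORC1 at the lysosome, and the title of the series places the question in T cell-mediated autoimmunity. Per the labels, naive CD4+CD62L+ cells were sorted magnetically from spleen. Both genotypes were then cultured for 5 days with plate-coated antibody to CD3, antibody to CD28, 50 ng/ml of IL-2 and 1 ng/ml of TGFβ (recombinant, human). The extraction protocol speaks of naive cells, so the labels leave open that the RNA came from the cultured cells, as was assumed here. How Lamtor1 was removed, in which cells, and the age, sex and number of mice are not given in the sources used here. There was 1 RNA extract per genotype, hybridised on 2 two-colour Agilent arrays with the dyes exchanged. KO was labelled with Cy5 and WT with Cy3 on array 1, and the reverse on array 2. The arrays repeat the labelling and hybridisation only, so the spread between cultures or mice is unknown here and no test was made.

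Naive T cells do not divide, and antibodies to CD3 and CD28 bring them into the cell cycle. A dividing cell makes most RNAs of the mitotic apparatus in G2 and at the entry into mitosis. Cyclin B with CDK1, and the Polo-like and Aurora kinases, start mitosis. Condensin compacts the chromosomes, kinetochores tie them to spindle microtubules, and the spindle checkpoint holds the anaphase-promoting complex until every chromosome is attached. Separase then cuts cohesin, and the central spindle and contractile ring divide the cell. Transcription of many of these genes is known to run through the MuvB complex with B-Myb and FoxM1, which reads a promoter element named the cell cycle genes homology region (CHR), often beside CCAAT boxes bound by NF-Y.

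A gene counted as measured when its probe stood well above background in the same RNA, KO or WT, on both arrays, which held for 14874 genes and for 54 of the 56. The rule of size for calling a gene higher or lower was a difference of 2-fold or more, in 1 direction, on each of the arrays. The ± beside a log2 ratio of KO over WT is the technical SD of the 2 arrays, whose median was 0.09 over the 54 genes and 0.11 over all measured genes. The number of arrays limits the precision. The targeted gene, Lamtor1, had an intensity of 270.0 and 281.2 in the KO extract, against 1054 and 1071 in the WT extract (−1.95 ± 0.03). The sources used here do not say whether its probe lies in the deleted part. The T cell genes Cd3e, Thy1 and Lck were bright in both RNAs, with log2 ratios of 0.09, 0.09 and 0.16. Cd3d, also bright, stood at −0.79 ± 0.09 and Cd3g at −0.49 ± 0.05, and neither was called. Cd4 stood at −1.18 ± 0.05 and Cd5 at −1.12 ± 0.12, and both were called lower. The median of the 9 measured CD4 T cell markers was 0.04. Of the CD8 T cell markers, Cd8a stood at 0.67 ± 0.03 and Cd8b1 at −0.55 ± 0.01, and neither was called. Of 4 NK cell markers 3 were measured and all 3 were called higher. Their summed intensity was 1299 and 1200 in the KO extract, against 398.6 and 411.0 in the WT extract. Most of it came from Klrd1, with 942.5 and 905.2 in KO against 253.0 and 287.2 in WT. Klrb1c and Klra8 were dim and not well above background in WT. Ncr1, which defines NK cells, was not well above background in either RNA on both arrays. Of 6 myeloid markers 4 were measured and 0 called, with a summed intensity of 9832 and 8737 in KO and 5891 and 5638 in WT, nearly all of it from Itgam. Of 4 B cell markers 1 was measured, Cd79b, with 209.0 and 191.0 in KO against 139.7 and 121.4 in WT (0.62 ± 0.05), and it was not called. The B cell gene Cd79a and the myeloid gene Cd68 were not measured. Of 5 erythroid and platelet markers 1 was measured, Hbb-b1, with 79.59 and 96.55 in KO against 216.2 and 217.6 in WT. It was called lower (−1.31 ± 0.19) but was not well above background in KO. Klrd1 and the other measured NK markers moved opposite to the mitotic genes, and Hbb-b1 moved in the same direction. The part of these cell markers in the results below was not tested.

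Most of the listed genes were lower in the KO extract. Of the 54 measured genes 47 were called lower and 0 higher, beside 6.88% lower and 2.46% higher among all 14874 measured genes. The median log2 ratio of the 54 was −2.0, against −0.02 over all measured genes. In size, 27 lay at or below −2, 20 lay between −2 and −1, and 7 lay above −1. On both arrays, 52 of the 54 were below 0 and 0 above 0. Of all 14874 measured genes, 6595 were below 0 on both arrays and 5747 above 0. Among all measured genes ranked from the lowest ratio, 14 of the 54 stood among the lowest 100 and 41 among the lowest 500. The arrays ordered the 54 genes much alike (Pearson r = 0.94 across genes, which share the same 2 extracts and are not replicates). In bulk RNA of this kind, fewer cells in mitosis and less RNA per mitotic cell cannot be told apart. The genes lie on 16 chromosomes, and the nearest to the Lamtor1 probe on chromosome 7, Plk1, is 20.25 Mb away.

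**Figure D1:**
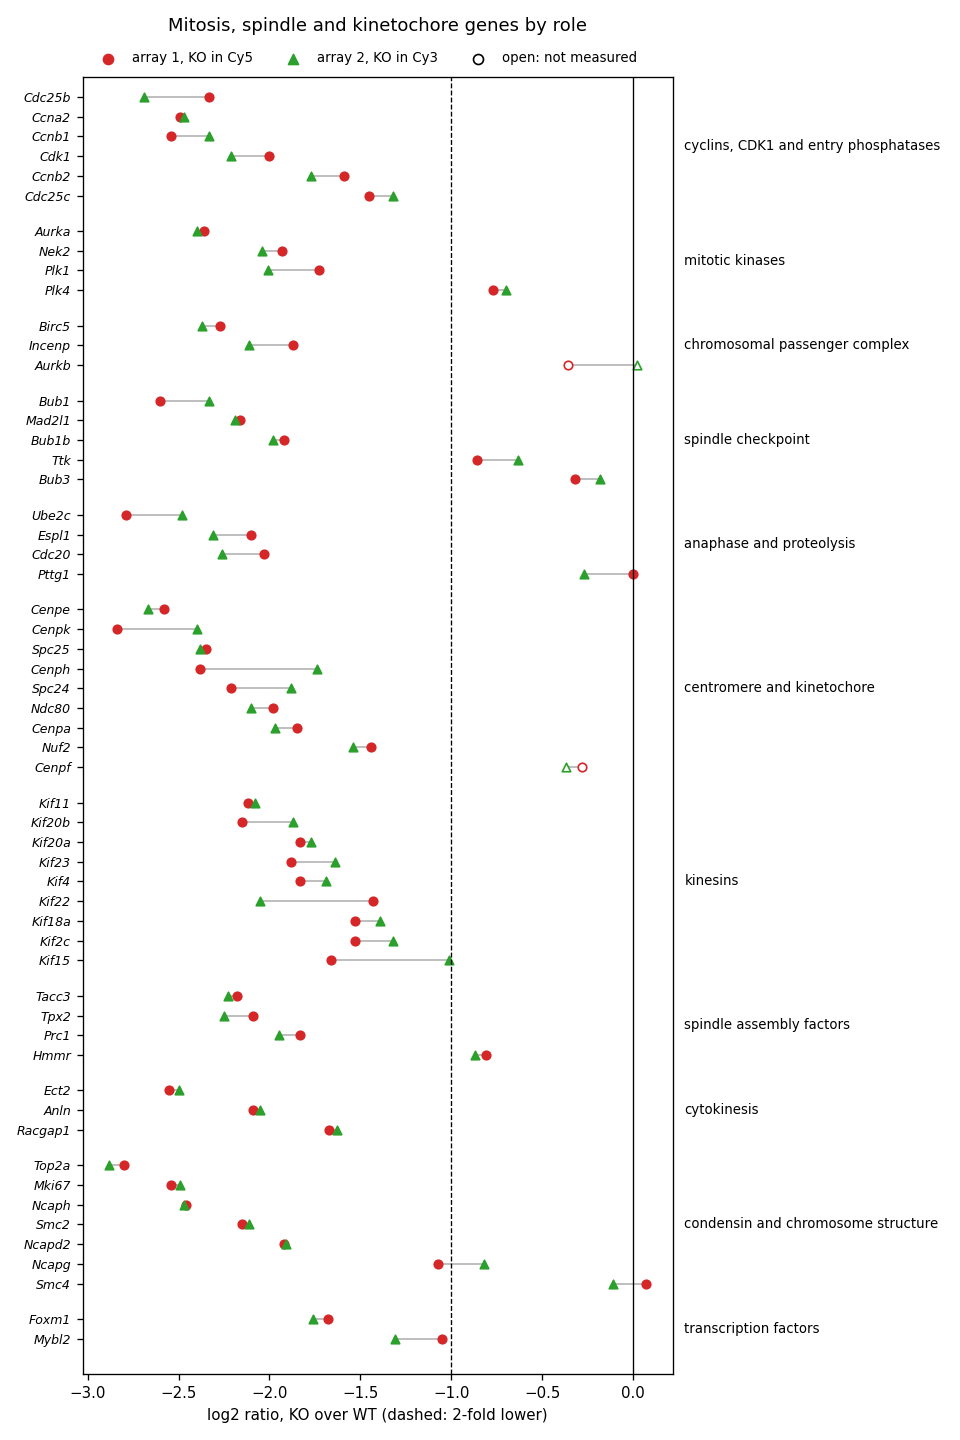
Log2 ratio of KO over WT (x axis) for each of the 56 genes, grouped by role, on array 1 (circles, KO in Cy5) and array 2 (triangles, KO in Cy3); open symbols mark the 2 genes that were not measured, and the dashed line marks 2-fold lower in KO. Most genes lie left of that line on both arrays, from Top2a at −2.80 and −2.88 to Mybl2 at −1.05 and −1.31, and Smc4, Pttg1 and Bub3 lie near 0.

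Top2a, which encodes the topoisomerase that untangles sister DNA before anaphase, had the lowest ratio of the group. Its normalized intensity on arrays 1 and 2 was 680.3 and 625.4 in the KO extract, against 4723 and 4600 in the WT extract (log2 ratio −2.84 ± 0.06, or 7.15-fold lower; probe at chromosome 11, 98855522 to 98855581, build mm9). Ube2c, the ubiquitin-conjugating enzyme of the anaphase-promoting complex, had 938 and 1061 in KO, against 6471 and 5897 in WT (−2.63 ± 0.22; chromosome 2, 164598016 to 164598075). The kinetochore motor gene Cenpe had 851.1 and 828.8 in KO, against 5080 and 5285 in WT (−2.62 ± 0.07; chromosome 3, 134936387 to 134936446). Cenpk, of the constitutive centromere network, had 331.4 and 428.3 in KO, against 2366 and 2268 in WT (−2.62 ± 0.30; chromosome 13, 105039517 to 105039576). In all of these the KO and WT values lay far apart on both arrays, with both RNAs well above background.

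The promoters of these 4 genes, and of the highest measured members with a sequence, Pttg1 and Bub3, are shown because the mitotic genes moved together and many are known targets of CHR and CCAAT elements. Each runs from 250 bases before to 50 after a gene start, in the RefSeq annotation of build GRCm38.p6. Capitals mark, on either strand, the CHR letters TTTGAA or TTCGAA, the NF-Y box CCAAT, and the E2F site letters TTTCGCGC or TTTGGCGC; on the other strand TTTGAA reads TTCAAA and CCAAT reads ATTGG. The regions are chr11:99024140-99024439 on the minus strand for Top2a, chr2:164769679-164769978 on the plus strand for Ube2c, chr3:135212313-135212612 on the plus strand for Cenpe, and chr13:104228361-104228660 on the plus strand for Cenpk, the first of 3 listed starts. Those of the others are chr11:43425932-43426231 on the minus strand for Pttg1 and chr7:131560120-131560419 on the plus strand for Bub3, the first of 2 listed starts.
Top2a: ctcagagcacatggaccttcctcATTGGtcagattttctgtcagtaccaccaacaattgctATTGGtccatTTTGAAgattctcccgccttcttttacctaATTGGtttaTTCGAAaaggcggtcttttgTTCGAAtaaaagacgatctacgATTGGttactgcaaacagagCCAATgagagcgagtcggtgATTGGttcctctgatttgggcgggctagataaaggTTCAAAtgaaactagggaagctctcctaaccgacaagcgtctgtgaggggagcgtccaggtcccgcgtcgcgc
Ube2c: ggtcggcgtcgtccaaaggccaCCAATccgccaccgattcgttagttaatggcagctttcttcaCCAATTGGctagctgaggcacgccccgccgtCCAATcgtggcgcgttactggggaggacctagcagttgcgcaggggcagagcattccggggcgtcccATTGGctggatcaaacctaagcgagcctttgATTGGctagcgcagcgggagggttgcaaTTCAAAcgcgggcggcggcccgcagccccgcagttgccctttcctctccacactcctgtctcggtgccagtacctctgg
Cenpe: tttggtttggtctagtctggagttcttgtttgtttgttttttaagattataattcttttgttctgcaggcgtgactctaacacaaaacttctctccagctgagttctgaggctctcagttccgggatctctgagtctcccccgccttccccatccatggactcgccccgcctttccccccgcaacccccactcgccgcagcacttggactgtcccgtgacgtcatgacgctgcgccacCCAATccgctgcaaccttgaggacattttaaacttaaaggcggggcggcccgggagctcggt
Cenpk: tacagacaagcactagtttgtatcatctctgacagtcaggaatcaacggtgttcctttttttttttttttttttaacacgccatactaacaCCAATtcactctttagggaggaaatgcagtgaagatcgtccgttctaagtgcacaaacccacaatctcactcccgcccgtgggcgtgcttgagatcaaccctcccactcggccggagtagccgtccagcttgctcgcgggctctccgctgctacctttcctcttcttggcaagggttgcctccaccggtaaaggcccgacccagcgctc
Pttg1: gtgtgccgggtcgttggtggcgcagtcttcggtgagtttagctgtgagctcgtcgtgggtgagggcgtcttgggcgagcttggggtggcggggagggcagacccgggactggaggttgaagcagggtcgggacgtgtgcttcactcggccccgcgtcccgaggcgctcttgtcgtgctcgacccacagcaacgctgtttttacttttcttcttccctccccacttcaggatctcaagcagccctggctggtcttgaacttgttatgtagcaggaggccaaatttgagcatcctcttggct
Bub3: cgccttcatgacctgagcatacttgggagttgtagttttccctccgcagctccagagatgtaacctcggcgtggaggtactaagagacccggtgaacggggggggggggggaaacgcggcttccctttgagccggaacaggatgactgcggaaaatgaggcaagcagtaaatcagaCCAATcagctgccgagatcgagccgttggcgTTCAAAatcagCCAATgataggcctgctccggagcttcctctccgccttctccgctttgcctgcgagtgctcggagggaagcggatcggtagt

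Top2a held 4 CHR matches and 6 CCAAT boxes in its window, and Ube2c held 1 CHR match and 6 CCAAT boxes, of which a pair on opposite strands overlap. Cenpe and Cenpk held 1 CCAAT box each and no CHR letters at this start. Bub3 held 1 CHR match and 2 CCAAT boxes at a ratio near 0, while the Pttg1 window held none of the letters searched. Across the group, 47 of the 56 genes had 1 or more promoters in the table, 52 in all. CHR letters stood in 36 of the 52 (69.2%), against 14.5% of the 11716 promoters of measured genes and 19.2% of all 32851 promoters. A CCAAT box stood in 38 (73.1%), against 37.9% and 37.4%, and both kinds together in 31 (59.6%), against 6.10% and 7.52%. The E2F letters stood in 4 (7.69%; Cdk1, Kif15, Kif18a and Ncapd2), against 1.56% and 0.813%. Position differed too. CHR letters began in the 50 bases from the start onward in 38.5% of the mitotic promoters and in the 50 bases before it in 23.1%, against 1.83% and 1.98% of promoters of measured genes. CCAAT boxes began in the windows −100 to −51 and −50 to −1 in 36.5% and 42.3% of the mitotic promoters. In promoters of measured genes these shares were 15.2% and 11.1%, and the same windows held the highest shares in both. Within the group, the 32 measured genes with CHR letters had a median log2 ratio of −1.98 and the 14 without −2.11. For CCAAT the medians were −2.08 in the 32 genes with a box and −1.75 in the 14 without, and for the E2F letters −1.69 in the 4 genes with them and −2.05 in the 42 without. None of these gaps was tested. A match describes these letters only, and no binding was measured.

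**Figure D2:**
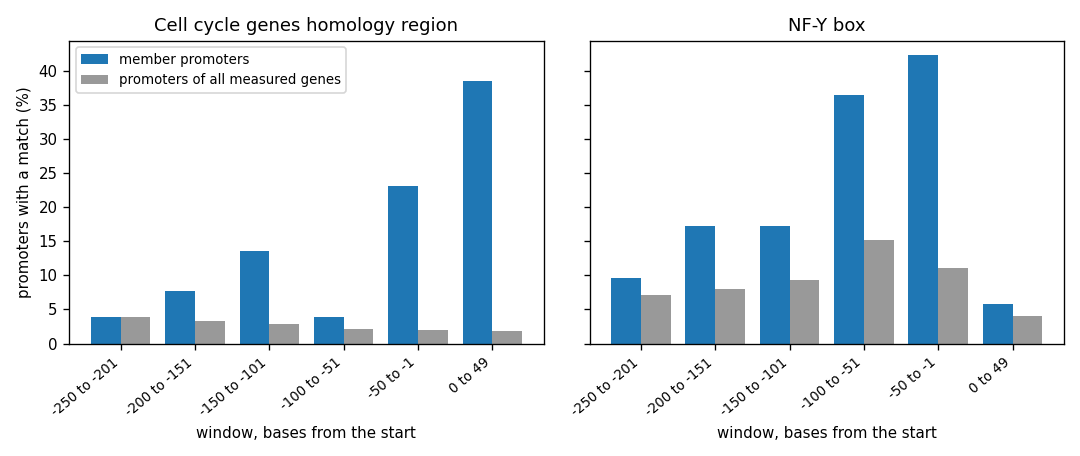
Share of promoters (y axis, percent) with a CHR match (left) or a CCAAT box (right) that begins in each 50-base window, by distance from the gene start (x axis); blue bars are the 52 promoters of mitotic genes and grey bars the 11716 promoters of all measured genes. The CHR bars of the mitotic genes are tallest from the start onward (38.5%) and the CCAAT bars just before it (42.3%).

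All 6 measured genes for the cyclins, CDK1 and the phosphatases that activate it were called lower (median −2.27). Cdc25b, a phosphatase that removes the inhibitory phosphates of CDK1, had the lowest ratio, with 573.3 and 481.3 in KO against 2882 and 3112 in WT (−2.51 ± 0.26; chromosome 2). Ccna2, the S and G2 cyclin A2, gave the tightest values, 544.7 and 538.1 in KO against 3050 and 2979 in WT (−2.48 ± 0.01; chromosome 3). The cyclin B genes differed in size: Ccnb1 stood at −2.44 ± 0.15 and Ccnb2 at −1.68 ± 0.13. Cdk1 itself stood at −2.10 ± 0.15, with 386.7 and 337 in KO against 1545 and 1559 in WT. Cdc25c (−1.38 ± 0.09) was dim, and its KO signal passed the background limit on a single array.

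Of the 4 mitotic kinases Aurka, Plk1, Nek2 and Plk4, 3 were called lower. Aurka, which matures centrosomes and builds spindle poles, had 594.3 and 556.5 in KO against 3046 and 2934 in WT (−2.38 ± 0.03; chromosome 2). Plk1, the Polo-like kinase of mitotic entry, stood at −1.87 ± 0.20, and Nek2, a kinase of centrosome separation, at −1.99 ± 0.08. Plk4, which drives centriole duplication, was dim and not called, with 89.7 and 99.4 in KO against 153.3 and 161 in WT (−0.73 ± 0.05). The ratio of this dim probe depended on the background correction, which adds an offset of 50 before the ratio is taken. With an offset of 1 Plk4 stood at −1.31, and with the scanner software's processed signals, which also differ in background subtraction and dye normalization, at −2.21; both passed the rule of size.

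The chromosomal passenger complex corrects faulty attachments of chromosomes to the spindle and later guides cytokinesis. Its members Birc5 (survivin) and Incenp were bright and called lower. Birc5 had 2972 and 2977 in KO against 14337 and 15399 in WT (−2.32 ± 0.07; chromosome 11), and Incenp had 2942 and 2605 in KO against 10788 and 11247 in WT (−1.99 ± 0.17). The kinase of the complex, Aurkb, was not measured. Its probe gave 75.05 and 82.17 in KO and 96.57 and 81.05 in WT, close to background, so the array holds no usable value for it.

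The spindle checkpoint split by gene. Bub1, a kinetochore kinase whose probe was spotted 10 times on each array, had 130.2 and 168.7 in KO against 787.9 and 846.6 in WT (−2.46 ± 0.19; chromosome 2). The SD over its 10 spots was 0.11 on array 1 and 0.12 on array 2. Mad2l1 (−2.17 ± 0.02) and Bub1b (−1.95 ± 0.04), which encode the checkpoint proteins MAD2 and BUBR1, were also called lower. Bub3, the bright WD-repeat partner of both BUB kinases, was not called, with 2771 and 2812 in KO and 3467 and 3191 in WT (−0.25 ± 0.10; chromosome 7). Ttk, the upstream checkpoint kinase MPS1, was not well above background in KO, and its bound was at least 1.68-fold lower (70.8 and 91.2 in KO against 128.2 and 141.5 in WT). With the processed signals Ttk stood at −2.71 and passed the rule of size, whereas Bub3 stood at −0.19.

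Of the genes for anaphase and the proteolysis that starts it, Ube2c, Espl1 and Cdc20 were called lower and Pttg1 was not. Espl1, which encodes separase, had 193.6 and 160.6 in KO against 827.3 and 798 in WT (−2.20 ± 0.15). Cdc20, the activator of the anaphase-promoting complex, had 2057 and 1780 in KO against 8419 and 8538 in WT (−2.15 ± 0.16). Pttg1, which encodes securin, the inhibitor of separase, had 1835 and 1647 in KO and 1830 and 1982 in WT (−0.13 ± 0.19; chromosome 11, 43233801 to 43233860). Its values overlapped between the RNAs, and its second, much dimmer probe stood at 0.05.

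Among 9 centromere and kinetochore genes, all 8 that were measured were called lower (median −2.05). Behind Cenpe and Cenpk came Spc25 of the NDC80 complex, which grips microtubules, with 1546 and 1511 in KO against 7864 and 7872 in WT (−2.36 ± 0.02). Its partners Spc24 (−2.04 ± 0.23), Ndc80 (−2.04 ± 0.08) and Nuf2 (−1.49 ± 0.07) were called as well. Cenpa, the histone H3 variant that marks the centromere, stood at −1.91 ± 0.08. Cenph differed between the arrays, at −2.38 and −1.74. Cenpf was not measured, at 76.2 and 68.1 in KO and 92.5 and 88.1 in WT.

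All 9 kinesins, motor proteins that slide or shorten microtubules, were called lower, with a median of −1.76. Kif11, the motor that separates spindle poles, had 159.1 and 187.6 in KO against 692.1 and 795.9 in WT (−2.10 ± 0.03; chromosome 19). Kif20b (−2.01 ± 0.20), Kif20a (−1.80 ± 0.04), Kif4 (−1.76 ± 0.10) and Kif23 (−1.76 ± 0.17) act in the central spindle and cytokinesis. Kif22, a chromokinesin, differed between arrays, at −1.43 and −2.05. Kif18a (−1.46), Kif2c (−1.42) and Kif15 (−1.33 ± 0.46) had the smallest ratios of the kinesins and the dimmest probes. With the processed signals these stood at −2.65, −2.44 and −2.44, and the median of the kinesins at −2.44.

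Of the spindle assembly factors, Tacc3, which stabilises spindle microtubules, had 962 and 926.3 in KO against 4373 and 4333 in WT (−2.21 ± 0.03). Tpx2, the activator of Aurora A, stood at −2.17 ± 0.11, and Prc1, which bundles the central spindle, at −1.89 ± 0.08. Hmmr, a microtubule-binding protein of the spindle pole, was not called, with 530.5 and 530.6 in KO against 931.8 and 972.5 in WT (−0.84 ± 0.04). Unlike Plk4 and Ttk it was bright, and it stood at −0.83 with the processed signals. The 3 cytokinesis genes were called lower. Ect2, the exchange factor that activates RhoA at the cell equator, had 206.7 and 241.2 in KO against 1206 and 1365 in WT (−2.52 ± 0.03; chromosome 3). Anln, the ring scaffold anillin, stood at −2.07 ± 0.03, and Racgap1, of the centralspindlin complex, at −1.65 ± 0.03.

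Condensin genes differed from subunit to subunit. Ncaph, the kleisin subunit, had 1242 and 1169 in KO against 6829 and 6458 in WT (−2.46 ± 0.01; chromosome 2). Smc2 stood at −2.13 ± 0.02 and Ncapd2 at −1.92 ± 0.01. Smc4, the partner ATPase of Smc2 in the same complex, had the brightest of the 56 probes and gave 7443 and 7271 in KO and 7083 and 7834 in WT (−0.02 ± 0.13; chromosome 3, 68838437 to 68838496). The values of the RNAs overlapped for Smc4, which lay on either side of 0 on the arrays (0.07 and −0.11), while those of Smc2 did not overlap. Only a single Smc4 probe was on the array, and it was not checked for cross-hybridisation. Ncapg was dim and not well above background in KO, with a bound of at least 1.93-fold lower (67.95 and 88.30 in KO against 142.9 and 155.8 in WT), and stood at −3.27 with the processed signals. Mki67, the chromosome surface protein Ki-67 used to count dividing cells, had 2850 and 2620 in KO against 16522 and 14762 in WT (−2.51 ± 0.03; chromosome 7). Of the transcription factors, Foxm1 had 240.3 and 236.8 in KO against 768.2 and 803.2 in WT (−1.72 ± 0.06; chromosome 6). Mybl2, which encodes B-Myb, had 896.2 and 751.1 in KO against 1856 and 1863 in WT (−1.18 ± 0.18), the smallest ratio among the genes called. With median centring in place of loess Mybl2 had −0.88 and −2.56 on the arrays and missed the rule of size.

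**Figure D3:**
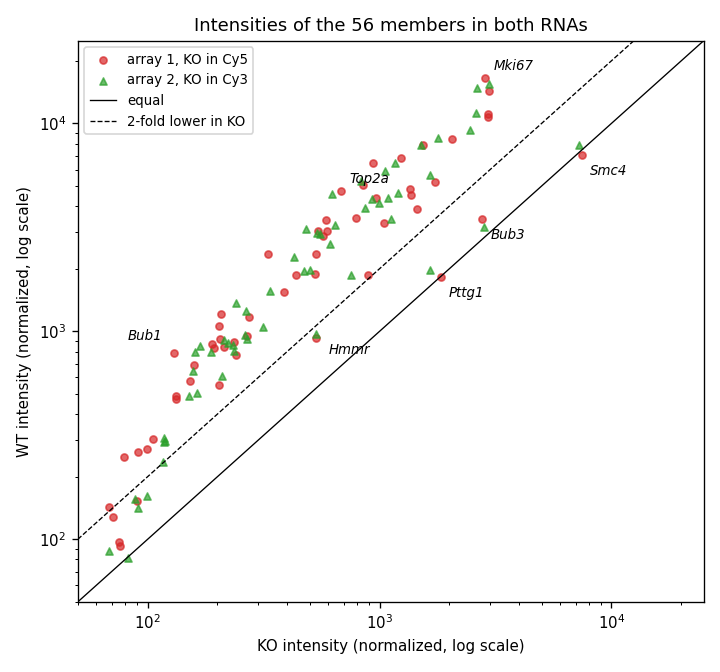
Normalized intensity of each of the 56 genes in the KO extract (x axis) and the WT extract (y axis), both on log scales, on array 1 (circles) and array 2 (triangles); the solid line marks equal values and the dashed line 2-fold lower in KO. Most points lie above the dashed line, with Mki67 and Top2a among them, while Smc4, Bub3 and Pttg1 lie at the solid line and Hmmr between the lines. At the dim end, the points of Plk4, Ttk, Aurkb and Cenpf lie below the dashed line.

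The rule used the brightest probe, and 15 of the genes had further probes, 19 in all, read in the same extracts. A further probe of Incenp, of Cdk1 and of Racgap1 overlaps in position the probe used, so it is not a fully separate reading. Of the 19 further probes 17 were measured, 11 were at least 2-fold lower on both arrays and 16 were below 0 on both. Among all 14874 measured genes, by their brightest probes, 6.88% were called lower and 6595 were below 0 on both arrays. Some bright pairs lay close together: the second probe of Mki67 stood at −2.52 beside −2.51, that of Incenp at −1.96 beside −1.99, and that of Cenpk at −2.42 beside −2.62. Others lay further apart, such as Ube2c at −2.21 beside −2.63 and Birc5 at −1.56 and −1.62 beside −2.32. The median of the 17 was −1.39, and the dimmer probe of a gene usually lay closer to 0. Mad2l1 had the widest disagreement among genes whose probes were all measured, with −0.44 and −0.34 for its dimmer probes beside −2.17. With the median over probes in place of the brightest, Mad2l1 was no longer called (−0.52), and 46 of the 54 genes were called lower beside 6.41% of all. The 2 further probes of Cdk1, at or near background, stood at −0.23 and −0.31 beside −2.10, although the first of them overlaps the probe used. That of Tpx2 stood at −0.41 beside −2.17. The second probe of Foxm1, at −1.08 and −0.95, just missed the rule of size. The dimmer probes of Ccnb1 (−1.42 and −1.39) and those of Birc5 were lower by the rule of size.

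**Figure D4:**
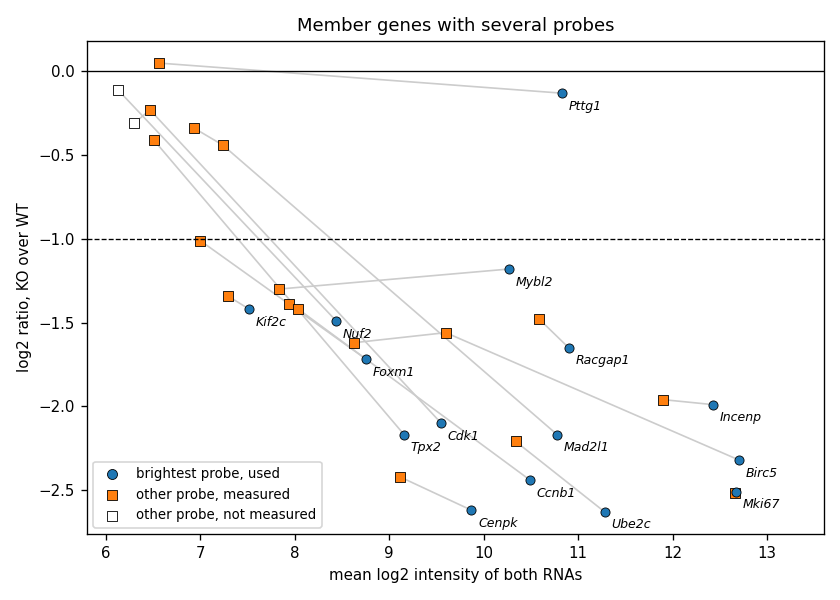
Log2 ratio of KO over WT (y axis) against mean log2 intensity of both RNAs (x axis) for the 15 genes with several probes; circles are the brightest probe, squares the other probes (white where not measured), and grey lines join probes of a gene. The probes of Mki67 lie together at −2.51 and −2.52, while the dimmest squares lie closer to 0 than the circle of the same gene.

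Further mitotic genes came from a list of 80 that holds none of the 56. That list too was chosen with earlier results of these data known. Most of its genes were also lower in KO, though by less at the median (−1.56 against −2.0 for the 54 measured members). Of 79 measured, 62 were called lower and 0 higher (78.5% lower, median −1.56), from Ska1, of the kinetochore-microtubule linker SKA, at −2.76 ± 0.09 to Zwint, a kinetochore protein, at 0.39 ± 0.20. The lists of the anaphase-promoting complex, of cohesin and of the gamma-tubulin ring and centrosome stood closer to 0 by their medians. Among all measured genes 6.88% were called lower. Of 14 measured subunits and activators of the anaphase-promoting complex 1 was called lower, Anapc15 (−1.10 ± 0.13), whose probe (chromosome 7, 109047993 to 109048051) lies beside that of Lamtor1 (109060334 to 109060393). The list median was −0.27, with Anapc13 highest at 0.22. Cohesin and its loaders had 0 of 10 called (median −0.41), from Rad21 at −0.95 to Mau2 at 0.21. The gamma-tubulin ring and centrosome list had 0 of 13 called (median −0.38), from Tubg1 at −0.91 to Cep63 at 0.62. These lists and the 56 genes stand side by side without a test of their difference.

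The neighbouring phases of the cycle were set beside the mitotic genes in the same way. Of 39 measured DNA replication genes 28 were called lower and 0 higher (71.8% lower, median −1.51), from the licensing factor gene Cdt1 at −2.49 ± 0.07 to Chaf1b, of the chromatin assembly factor, at 0.90 ± 0.11. Of 12 measured G1 cyclins, CDKs and inhibitors 2 were called lower, the CDK inhibitor genes Cdkn1a (−2.72 ± 0.02) and Cdkn2d (−1.07 ± 0.02), and the median was −0.50. A further CDK inhibitor gene, Cdkn2c, was called lower too (−1.63 ± 0.12), but it was counted in the list of further mitotic genes above. Regulators of cell cycle transcription varied gene by gene: 7 of 19 measured MuvB, RB family and E2F genes were called lower (median −0.68). E2f8, a repressor E2F that is itself cell cycle-controlled, stood lowest at −2.36, and Lin37, a MuvB core subunit, highest at 0.28. The NF-Y subunit genes stood at −1.05 ± 0.23 for Nfyb, which was not called, 0.32 for Nfya and 0.59 for Nfyc.

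**Figure D5:**
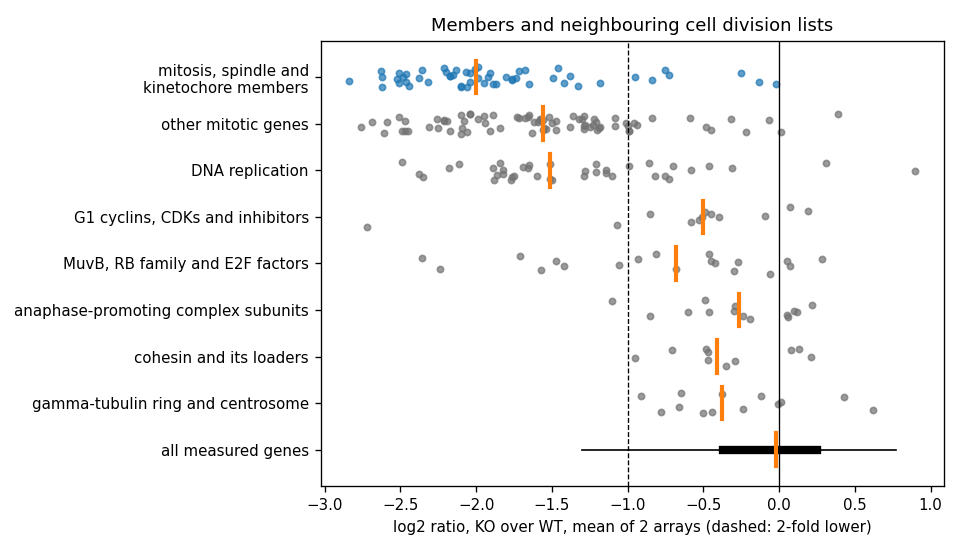
Log2 ratio of KO over WT, mean of the 2 arrays (x axis), for each measured gene of the mitotic group (blue) and of 7 other lists (grey); orange bars are list medians, and the last row gives the median, quartiles (thick) and 5th to 95th percentile (thin) of all measured genes. The median is −2.0 for the mitotic group, −1.56 for other mitotic genes, −1.51 for DNA replication and −0.27 for the anaphase-promoting complex, and the thin line spans −1.30 to 0.77.

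The ratios also depended on background correction and normalization, and median centring moved 50 of the 54 by more than the technical SD. With the processed signals, and with the series matrix, 50 of the 54 were called lower (10.9% of all measured genes), since Ncapg, Ttk and Plk4 joined, and the median was −2.37. The same 3 genes joined with an offset of 1, where 9.40% of all genes were called lower. With a fold of 1.5 as the limit 51 were called (13.5% of all), and on array 1 alone 48 (7.89% of all). With the stricter filter, which asks for both RNAs above background on both arrays, 46 were called (7.03% of all). With median centring 46 were called as well (5.92% of all), and the median was −2.46, where that of all measured genes was −0.37. Relative to that shift the group stood at −2.09, a rough figure because bright and dim probes shifted by different amounts. Smc4, Pttg1 and Bub3 were called under none of the 12 alternatives, and with median centring they stood at −0.64, −0.70 and −0.85. Median centring did not move all probes alike: bright Birc5 went from −2.32 to −2.94 and dim Ttk from −0.75 to −0.84. Smc4, Pttg1 and Bub3 are bright too, so −0.37 is not a fitting reference for them.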

How the data were processed

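RNA of the KO and WT extracts was measured on 2 Agilent whole mouse genome arrays; per the labels, hybridisation took 17 h at 65 °C with 400 ng of cRNA from either extract. Agilent Feature Extraction quantified the images (version 10.7.3.1 per the file headers, 10.5.1.1 per the submitters' processing notes). Per the file headers, the deposited intensity columns hold each spot's mean and local background without correction, plus a processed intensity that was background-subtracted and dye-normalized. In the authors' deposited series matrix the values are log10 ratios (Cy5 over Cy3), equal to the software's own log10 ratio at every spot.

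Each array had 43020 non-control spots, 0 of them saturated; 51.7% and 43.7% were well above background in KO on arrays 1 and 2, and 48.4% and 48.8% in WT. Mean intensities were corrected with normexp (offset 50) and loess-normalized within each array (limma 3.58.1, R 4.3.3, data.table, version 1.17.8), with control spots at weight 0. Outlier spots were left out, spots of a probe averaged, and ratios turned to KO over WT by the labelled dyes; the mean of the 2 arrays counts as 1 replicate. For repeated probes at least 0.5 of the spots had to be well above background. Per-channel intensities are those after loess and Aquantile normalization. For a bound, the brighter RNA was divided by the dim one, whose signal on an array was raised to the lowest one well above background if it lay under that. Probes were named by RefSeq accession, symbol or synonym (GRCm38.p6, names only). Probe positions are those of the files (mm9). Figures used Python 3.11.15 and matplotlib 3.10.9. The steps were tested on simulated data.

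The members and lists were chosen with earlier results of these data known. Named were the 10 lowest and 6 highest members, those not called, the lowest of each role, and the lowest, the highest and the few called genes of other lists. Members that help to describe a role, markers of cell types and Cdkn2c were named besides.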

Additional observations from a re-analysis of the deposited data

How the results depend on the processing

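No paired analysis was possible because each genotype is represented by 1 RNA extract, without a test. The count of mitotic genes called lower stayed between 46 and 51 under each of the 12 alternatives, where between 3.23% and 13.5% of all genes were called lower. The count called higher stayed at 0, where between 0.746% and 6.78% of all genes were called higher. The processed signals and the series matrix hold the same ratios, so they are not separate alternatives. The mitotic genes' median log2 ratio of −2.0 became −2.37 for the processed signals and the series matrix. It was −2.23 with a normexp offset of 1, −2.46 with median centring and −1.90 if probes of a gene were summarised by their median. Lamtor1 (−1.95) was −2.18 with the processed signals and the series matrix, −2.02 with no background subtraction, −2.17 with an offset of 1 and −2.39 with median centring. Over all genes, 366 were called higher and 1024 lower. These counts were 867 and 1614 with the processed signals and the series matrix, and 1009 and 2008 at 1.5-fold. The count called higher was 609 with an offset of 1, 111 with median centring and 556 on array 1 alone. No single mitotic gene that was called changed sign. Mad2l1, Mybl2 and Cdc25c each lost its call under 1 alternative, the last with the stricter filter on dim probes. Hmmr, Ncapg, Ttk and Plk4 gained one at 1.5-fold, where 51 were called; Ncapg, Ttk and Plk4 also with the processed signals, the series matrix and an offset of 1, and Ncapg on array 1 alone. Probes near background, such as those of Aurkb and Cenpf, limit what the arrays can show.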
